A study of Homo sapiens with 16 samples.

Results

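The libraries with low *NAA40* in this series were those labelled as *NAA40* knockdown cells that had received no doxycycline, and they are compared here with scramble control cells that had also received none. All cells were of the colorectal carcinoma line HCT116, which is of human origin and long established, and carried a stably integrated short hairpin RNA that doxycycline is meant to induce, directed either at *NAA40* (NAA40-KD) or at no gene (scramble, SCR). Both groups were grown for 96 h with no doxycycline (−dox), and the remaining groups, NAA40-KD (+dox) and SCR (+dox), received 1 μg/ml doxycycline (+dox) for 96 h. The comparison took 8 of the 16 libraries, 4 per group, and the 13903 genes, of 33937 listed, that exceeded a scaled level of 1 CPM (the count of a gene relative to its library size) in at least 4 of these 8 libraries. The numbers 1 to 4 in each group are separate RNA samples. Whether they came from separate cultures is not given in the sources used here, so the p-values measure the spread between these samples, which may be technical. Whether each line is a clone or a pool is not given either, and each group is 1 line, so a difference between the hairpins and a difference between the lines that carry them cannot be told apart.

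NAA40 is the N-alpha-acetyltransferase that acetylates the N-terminal serine of histones H4 and H2A. Dividing cells prepare for DNA synthesis by loading the MCM helicase at origins and by raising, under E2F factors, the genes for the helicase, the polymerases and the enzymes that make deoxynucleotides. The integrated stress response is a separate programme, in which the factor ATF4 raises genes for amino acid synthesis and uptake.

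The level of *NAA40* (ENSG00000110583, chr11:63938959-63957328 in GRCh38, plus strand) was 34.2, 25.7, 28.9 and 28.4 CPM in SCR (−dox) replicates 1 to 4 and 12.5, 11.5, 9.2 and 14.1 CPM in NAA40-KD (−dox) replicates 1 to 4. Every NAA40-KD (−dox) library was below every SCR (−dox) library. The means were 11.8 ± 2.07 and 29.3 ± 3.58 CPM (SD, n = 4 each), so that NAA40-KD (−dox) held 40.4% of the SCR (−dox) level (p = 0.0286 by an exact permutation test, two-sided, with 70 arrangements of 4 against 4, none of which can give less). The log2 fold change was −1.31 (SE 0.18, edgeR adjusted p = 0.00521), and −1.40 without NAA40-KD (−dox) replicate 4. These libraries were picked for their low *NAA40*. Both p-values therefore test the value that chose them and are no separate support. Between the libraries labelled (+dox), NAA40-KD held 110.7% of the SCR level (30.4 against 27.5 CPM, p = 0.0571 by the same exact test). The low *NAA40* level therefore stood under the label without doxycycline, against what the inducible hairpin is meant to do. The short sample names in the labels end in "wDox" for these libraries, which can be read either way, and the groups below are called by their labels.

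One library stood apart. In NAA40-KD (−dox) replicate 4 the log2 level of a gene, relative to the mean of its own group, increased by 0.753 for each 10 percentage points of GC content in the gene's exons, while in replicates 1 to 3 of the same group the slope lay between −0.269 and −0.238 and in SCR (−dox) between −0.0686 and 0.148. Against the SCR (−dox) mean, genes with a median GC content of 38.4% stood at −1.34 in replicate 4 and genes with 64.1% at 1.09, on the log2 scale. The 8 libraries held 11220219 to 13780419 counts, so depth did not set replicate 4 (12821689 counts) apart. Its share of counts from mitochondrially encoded genes was 5.03%, against 6.42 to 14.3% in the other 7. Markers of colorectal epithelium (8 of 16 listed genes tested) summed to 3828 to 4862 CPM in SCR (−dox), to 5136 to 6027 CPM in NAA40-KD (−dox) replicates 1 to 3 and to 11356 CPM in replicate 4. Such a sum mostly follows the most abundant members. By the test used below, none of the 8 was called higher and 1 was called lower with all 8 libraries. Without replicate 4, 3 were called higher and 1 lower. Markers of stromal cells summed to 61.0 to 94.4 CPM in SCR (−dox), 74.5 to 87.3 CPM in NAA40-KD (−dox) replicates 1 to 3 and 209.7 CPM in replicate 4, those of immune cells to at most 5.55 CPM and those of endothelium to at most 12.6 CPM in any of the 8. The counts for most gene lists, and the fold changes of many genes, are therefore given without replicate 4 too, and some after an offset for GC content (a correction fitted in each library). The part of these library differences in the results was not tested beyond that.

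**Figure D1:**
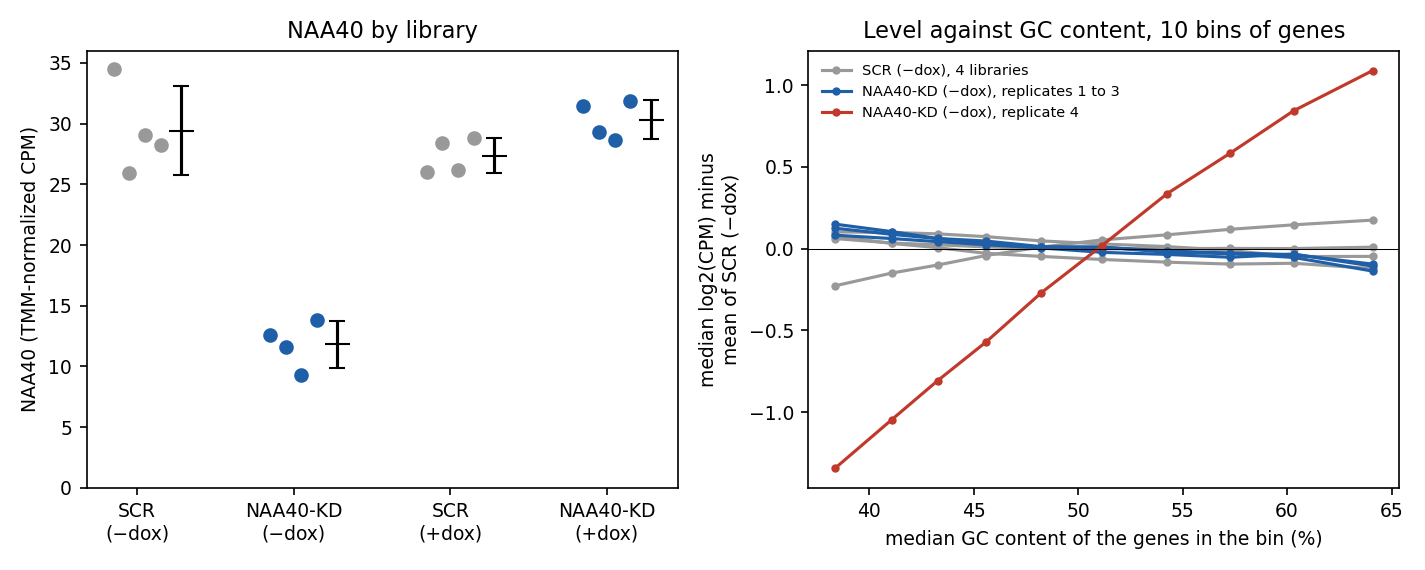
Left, *NAA40* in TMM-normalized CPM in each of the 16 libraries (points, 4 per group), with the mean and SD of each group beside them (bars). The 4 NAA40-KD (−dox) libraries lie below the other 12. Right, the median difference of each −dox library from the SCR (−dox) mean, on the log2 scale, in 10 bins of genes ordered by GC content. Replicate 4 of NAA40-KD (−dox) climbs from −1.34 to 1.09, while the other lines stay near 0.

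With all 8 libraries, 892 of 13903 genes differed between NAA40-KD (−dox) and SCR (−dox) at an adjusted p under 0.05 (6.42%, of which 2.88% higher and 3.54% lower in NAA40-KD). All adjusted p-values named edgeR are those of its quasi-likelihood test, adjusted over all genes tested after Benjamini and Hochberg, and fold changes are NAA40-KD over SCR. Below, "rose" and "fell" are used for genes that passed this threshold. With an absolute log2 fold change above 1 as well, 483 genes passed (3.47%), 226 higher (1.63%) and 257 lower (1.85%). Without replicate 4 many more genes passed, 5021 of 13751 (36.5%, of which 17.1% higher and 19.4% lower), while 587 (4.27%, 241 or 1.75% higher and 346 or 2.52% lower) had a log2 fold change above 1 in size. The offset for GC content gave 5283 called genes (38.0%, of which 18.1% higher and 19.9% lower) and 638 with the fold threshold (4.59%, of which 2.08% higher and 2.51% lower). Of the 483, 355 (73.5%) also passed both thresholds without replicate 4 and 412 (85.3%) with the offset. The genes behind these counts differed in GC content: with replicate 4 the median was 56.2% for the 226 higher and 45.3% for the 257 lower genes (49.6% over all tested), and without it 50.1% for the 241 higher and 52.2% for the 346 lower genes. In 3043 genes (21.9%, 10.2% higher and 11.7% lower) the 4 and 4 libraries did not overlap.

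Leaving out any library other than NAA40-KD (−dox) replicate 4 cost calls. Of the 65 genes named below that passed in all 8 libraries, 34 kept the call whichever library was left out. The other 31 lost it without at least 1 of the 7 other libraries: 29 without SCR (−dox) replicate 1, 26 without replicate 2, 28 without replicate 3 and 29 without replicate 4, and 19, 22 and 18 without NAA40-KD (−dox) replicates 1, 2 and 3. None of the 65 lost it without NAA40-KD (−dox) replicate 4, and none lost it without any 1 library once the offset for GC content was fitted.

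The replication genes are introduced by the promoter sequences of the 4 members of the replication and mitotic lists with the largest falls that RefSeq's promoter table (GRCh38.p14) holds, since these genes moved together. Each run gives 190 bases before and 10 bases after the transcription start, 5′ to 3′ on the gene's strand. Capitals mark E2F forms (TTTCCCGC, TTTGGCGC or TTTCGCGC) and the CCAAT box, on either strand.
*GINS3* (chr16:58392281-58392480, plus strand): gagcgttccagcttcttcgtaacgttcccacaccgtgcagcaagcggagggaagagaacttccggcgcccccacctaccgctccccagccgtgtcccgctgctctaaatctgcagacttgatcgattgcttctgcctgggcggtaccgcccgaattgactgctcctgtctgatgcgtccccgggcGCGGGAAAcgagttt
*MCM10* (chr10:13161368-13161567, plus strand): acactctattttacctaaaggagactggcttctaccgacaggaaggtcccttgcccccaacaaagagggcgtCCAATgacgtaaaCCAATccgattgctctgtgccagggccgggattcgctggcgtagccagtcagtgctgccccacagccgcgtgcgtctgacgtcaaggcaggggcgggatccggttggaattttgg
*POLA1* (chrX:24693728-24693927, plus strand): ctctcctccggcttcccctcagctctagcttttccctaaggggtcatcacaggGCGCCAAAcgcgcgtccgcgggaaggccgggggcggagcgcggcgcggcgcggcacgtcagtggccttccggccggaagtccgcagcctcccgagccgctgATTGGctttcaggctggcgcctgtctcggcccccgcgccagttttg
*MCM3* (chr6:52284733-52284932, minus strand): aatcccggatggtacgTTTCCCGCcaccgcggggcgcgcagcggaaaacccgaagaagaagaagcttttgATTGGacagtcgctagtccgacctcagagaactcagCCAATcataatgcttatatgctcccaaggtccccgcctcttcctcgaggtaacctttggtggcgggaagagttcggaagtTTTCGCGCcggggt
The leftmost base of the E2F form lay at −5 in *GINS3* and at −137 in *POLA1*, both on the opposite strand, and at −174 and −4 in *MCM3*. None of the E2F forms was found in the *MCM10* window, which held CCAAT at −118 and −105. In windows of 250 bases before to 50 bases after the start, 1 or more E2F forms were present in 2.79% of all 27305 promoters, in 4.54% of the 10502 promoters of tested genes, in 39.6% (21 of the 53 that matched) of those of the 3 replication lists described next and in 10 of the 20 of their called members. CCAAT, whose letters do not overlap the E2F forms, was present in 36.7% of the promoters of tested genes and in 56.6% of those of the 3 lists. These are matches of letters, not sites shown to be bound.

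Genes of the replication machinery were lower in NAA40-KD (−dox). Of the 66 genes in the lists for the MCM helicase, origin licensing and firing, and polymerases and fork proteins, 26 fell and none rose with all 8 libraries, against 3.54% of all genes that fell. Their median log2 fold change was −0.73, against 0.04 over all genes tested, and 62 of 66 were below 0. In 40 of the 66 genes the libraries of the groups did not overlap (all genes, 21.9%). Without replicate 4, 53 of the 66 fell, where 19.4% of all genes did, and with the offset for GC content 55 fell, where 19.9% of all did.

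Among the helicase genes (10 tested), 4 fell, and 9 fell without replicate 4. *MCM10*, which helps to activate the loaded helicase, stood at 44.3, 39.6, 44.5 and 56.5 CPM in SCR (−dox) and at 15.7, 15.3, 17.5 and 13.6 CPM in NAA40-KD (−dox), in the order of the replicate numbers as in all such lists below. The groups were far apart and replicate 4 was the lowest of its group (log2 fold change −1.57, SE 0.17, edgeR adjusted p = 0.00266, −1.52 without replicate 4). *MCM3*, a subunit of the hexameric helicase, was at 188, 172, 156 and 232 CPM in SCR (−dox) and at 64.7, 62.7, 64.1 and 88.1 CPM in NAA40-KD (−dox). Here replicate 4 was the highest of its group, yet below every control library (log2 fold change −1.42, SE 0.18, edgeR adjusted p = 0.00412, −1.55 without replicate 4). *MCM6*, another subunit of the hexamer, had 155, 127, 137 and 197 CPM in SCR (−dox) against 87.8, 95.9, 96.4 and 64.2 CPM in NAA40-KD (−dox). It fell less than *MCM3* did (log2 fold change −0.84, SE 0.19, edgeR adjusted p = 0.0356), and it lost the call without any 1 of the other 7 libraries (edgeR adjusted p up to 0.112).

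Of the 22 origin licensing and firing genes, 9 fell, and 16 did without replicate 4. *GINS3*, a subunit of the GINS complex that joins the helicase at firing origins, measured 16.1, 16.2, 17.3 and 19 CPM in SCR (−dox) and 4.97, 5.6, 5.58 and 5.13 CPM in NAA40-KD (−dox). Its libraries were tight within each group, replicate 4 included (log2 fold change −1.69, SE 0.15, edgeR adjusted p = 0.00183, −1.67 without replicate 4). *CDC6*, which loads the helicase onto origins, was at 98.5, 92.8, 96.7 and 105 CPM in SCR (−dox) and 50.7, 47.6, 48.6 and 36.8 CPM in NAA40-KD (−dox). Every knockdown library was below every control, and the means were 98.2 and 45.9 CPM (log2 fold change −1.10, SE 0.15, edgeR adjusted p = 0.0051, −1.01 without replicate 4).

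Among the 34 polymerase and fork genes, 13 fell, and 28 did without replicate 4. *POLA1*, the catalytic subunit of the polymerase that starts each new strand, had 33.1, 26.1, 32.7 and 41.8 CPM in SCR (−dox) and 15.4, 12.9, 13.3 and 6.39 CPM in NAA40-KD (−dox). Replicate 4 was the lowest of its group (log2 fold change −1.48, SE 0.27, edgeR adjusted p = 0.015, −1.27 without replicate 4), and without SCR (−dox) replicate 1, 3 or 4 the edgeR adjusted p was over 0.05, at up to 0.0609. *POLA2*, another subunit of that polymerase, was at 19.9, 19, 18.9 and 24.6 CPM against 7.49, 7.04, 8.11 and 8.74 CPM (log2 fold change −1.39, SE 0.16, edgeR adjusted p = 0.00312). The fork protein *CLSPN* (claspin), which carries the replication checkpoint signal, was at 39.7, 27.7, 37.4 and 44.7 CPM in SCR (−dox) and 14.8, 14.5, 16.9 and 11 CPM in NAA40-KD (−dox) (log2 fold change −1.38, SE 0.20, edgeR adjusted p = 0.00631). *FEN1*, the nuclease that trims Okazaki fragments, went from 82.5, 80.3, 80.1 and 112 CPM to 34.3, 32.1, 37.4 and 46.5 CPM (log2 fold change −1.24, SE 0.18, edgeR adjusted p = 0.00638), and its exons overlap those of *FADS2* and *TMEM258*, so its count is uncertain. Not every fork gene passed: *PCNA*, the sliding clamp, was at 172, 147, 146 and 234 CPM in SCR (−dox) and 128, 106, 140.3 and 117 CPM in NAA40-KD (−dox), so that the groups did not overlap, but its log2 fold change of −0.51 (SE 0.19) had an edgeR adjusted p of 0.135, which was 0.0235 without replicate 4 and 0.0678 with the offset for GC content.

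**Figure D2:**
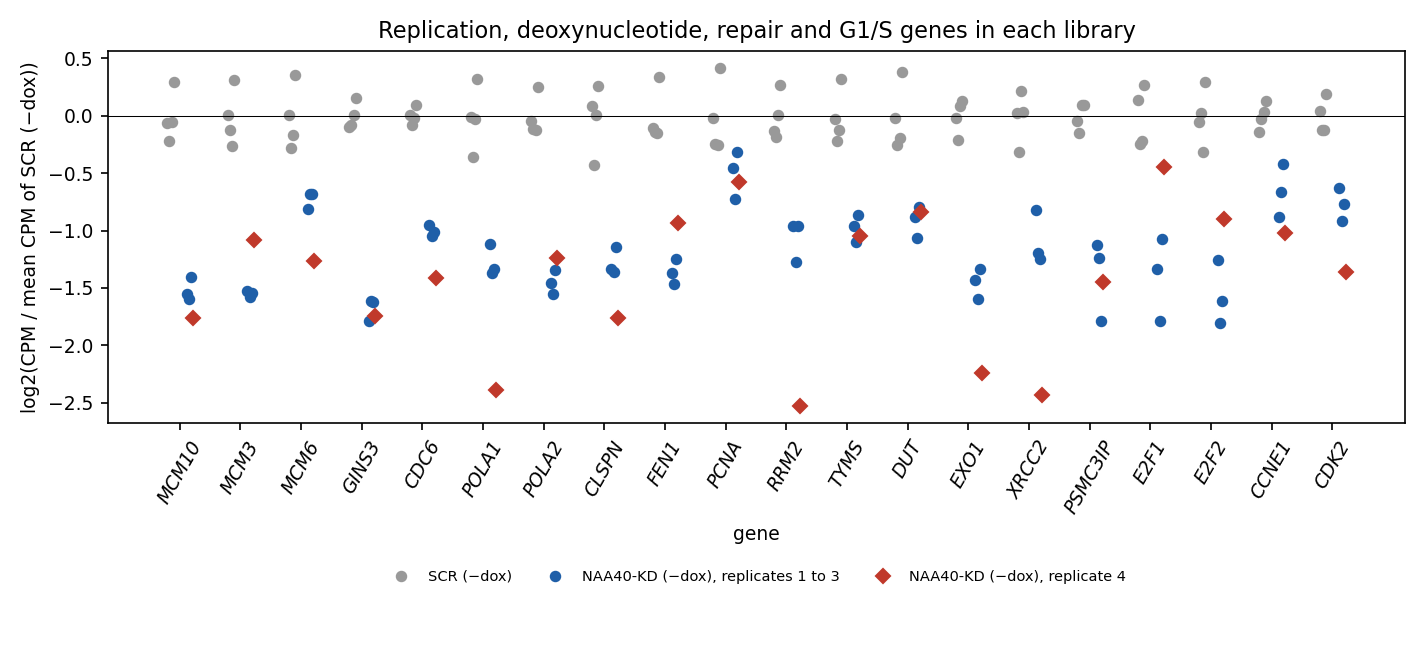
Level of 20 replication, deoxynucleotide, repair and G1/S genes in each −dox library, as log2 of the CPM over the mean CPM of SCR (−dox). Grey points are SCR (−dox), blue points NAA40-KD (−dox) replicates 1 to 3 and red diamonds replicate 4. For each gene all 4 NAA40-KD points lie below all 4 SCR points, while replicate 4 lies above its group for genes such as *MCM3*, *FEN1* and *E2F1* and well below it for *POLA1*, *RRM2* and *XRCC2*.

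Enzymes that supply deoxynucleotides gave 4 falls and no rise among 16 tested genes (median log2 fold change −0.21), and 9 falls and 2 rises without replicate 4 (median −0.37). Over all genes 3.54% fell, and without replicate 4 19.4% fell and 17.1% rose. *TYMS*, thymidylate synthase, which makes dTMP and is the target of 5-fluorouracil, lies at chr18:657604-673578 (GRCh38, plus strand). It measured 45.3, 39.7, 42.3 and 57.4 CPM in SCR (−dox) and 23.7, 21.5, 25.4 and 22.3 CPM in NAA40-KD (−dox). The 4 knockdown libraries were close to each other and all below the controls (log2 fold change −0.99, SE 0.16, edgeR adjusted p = 0.0102, −0.98 without replicate 4). Its call held whichever library was left out (edgeR adjusted p up to 0.0433). The exons of *TYMS* overlap those of *ENOSF1* and *TYMSOS* on the other strand, and whether reads were counted by strand is not given in the sources used here, so its count is uncertain. The ribonucleotide reductase subunit *RRM2* had 223, 215, 246 and 294 CPM in SCR (−dox) and 125, 101, 126 and 42.4 CPM in NAA40-KD (−dox). Replicate 4 lay far below its group (log2 fold change −1.31, SE 0.31, edgeR adjusted p = 0.0374, −1.06 without replicate 4), and the edgeR adjusted p reached 0.125 when any other library was left out. *DUT*, which removes dUTP, fell as well (16.8 against 31.2 CPM, log2 fold change −0.89, SE 0.18, edgeR adjusted p = 0.0207), with adjusted p-values up to 0.0697 (edgeR) without 1 library, and its exons overlap those of an antisense gene.

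One-carbon metabolism did not move as a block. In the list for the methionine cycle and transsulfuration (29 tested), 2 genes rose and 2 fell, with a median log2 fold change of −0.04, and 9 rose and 10 fell without replicate 4. All genes gave 2.88% rises and 3.54% falls, and 17.1% and 19.4% without replicate 4. *MAT1A*, a methionine adenosyltransferase that is typical of liver, lies at chr10:80271820-80289684 (GRCh38, minus strand) and was low in SCR (−dox), at 1.86, 2.2, 2.74 and 3.06 CPM. It was at 11.9, 10.6, 8.98 and 11.4 CPM in NAA40-KD (−dox), above every control library and 4.32 times their level in the fit (log2 fold change 2.11, SE 0.21, edgeR adjusted p = 0.00238, 2.07 without replicate 4). *MMAA*, which takes part in cobalamin handling, had 3.29, 4.06, 5.78 and 4.51 CPM in SCR (−dox) and 11.5, 10.7, 10.3 and 5.72 CPM in NAA40-KD (−dox). Replicate 4 lay just below the highest control library, the groups overlapped, and the rise (log2 fold change 1.11, SE 0.26, edgeR adjusted p = 0.0374, 1.29 without replicate 4) had an edgeR adjusted p of up to 0.127 when any library other than replicate 4 was left out. *CTH*, the cystathionine gamma-lyase of transsulfuration, was at 18.8, 22, 19.6 and 22.3 CPM against 31.2, 32.5, 32.7 and 24.7 CPM. No library of *CTH* overlapped between the groups, and its log2 fold change of 0.55 (SE 0.16) had an edgeR adjusted p of 0.0636 with replicate 4 and of 0.000214 without it (0.63). In the other direction, *MTR*, methionine synthase, had 84.6, 72.6, 80.8 and 87.4 CPM in SCR (−dox) and 52.1, 53.8, 45.1 and 38.7 CPM in NAA40-KD (−dox) and fell (log2 fold change −0.78, SE 0.16, edgeR adjusted p = 0.0206), with edgeR adjusted p-values up to 0.0786 without 1 library. The list of folate and serine enzymes (19 tested) had 3 falls and 1 rise, and 13 falls and 1 rise without replicate 4, with medians of −0.43 and −0.61.

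Some regulators of the G1/S transition fell too. In the E2F and retinoblastoma list 5 of 18 genes fell and none rose (median log2 fold change −0.36), against 7 falls and 1 rise without replicate 4. The share of all genes that fell was 3.54%, and without replicate 4 19.4% fell and 17.1% rose. *E2F1*, an activating E2F, was at 27.5, 21.1, 21.5 and 30.1 CPM in SCR (−dox) and at 9.94, 7.26, 11.9 and 18.4 CPM in NAA40-KD (−dox). Replicate 4 was the nearest to the controls (log2 fold change −1.08, SE 0.28, edgeR adjusted p = 0.0482, −1.37 without replicate 4), and the edgeR adjusted p rose to 0.152 without any 1 of the other libraries. *E2F2*, its close relative, had 29.1, 30.8, 24.3 and 37.2 CPM against 12.7, 8.7, 9.92 and 16.3 CPM (log2 fold change −1.35, SE 0.23, edgeR adjusted p = 0.0115, −1.54 without replicate 4). Of 17 G1 cyclins, kinases and inhibitors, 5 fell and none rose, and 10 fell and 5 rose without replicate 4. In all 8 libraries 10 of the 17 were below 0, and the summed level of the list was 1588 to 1994 CPM in NAA40-KD (−dox) against 1446 to 1628 CPM in SCR (−dox). *CCNE1*, cyclin E1, fell from 30.05 to 18.1 CPM (log2 fold change −0.73, SE 0.17, edgeR adjusted p = 0.0347), and its kinase partner *CDK2* from 71.3 to 38.4 CPM (log2 fold change −0.89, SE 0.18, edgeR adjusted p = 0.0224). Both lost the call in 6 of the 8 fits without 1 library, with edgeR adjusted p-values up to 0.114 and 0.0827, and the exons of *CDK2* overlap those of *PMEL*.

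Of 39 genes of homologous recombination and Fanconi repair, 10 fell and none rose, with a median log2 fold change of −0.62, and without replicate 4 25 fell and 2 rose. For comparison, 3.54% of all genes fell and 2.88% rose, and 19.4% and 17.1% did without replicate 4. *EXO1*, an exonuclease that resects broken ends and takes part in mismatch repair, had 32.1, 28, 34.4 and 35.5 CPM in SCR (−dox) and 12, 10.7, 12.9 and 6.89 CPM in NAA40-KD (−dox). All NAA40-KD libraries were below all controls, with replicate 4 the lowest (log2 fold change −1.61, SE 0.21, edgeR adjusted p = 0.00424, −1.45 without replicate 4). *XRCC2*, which acts in homologous recombination, was at 17.1, 13.5, 19.5 and 17.2 CPM against 9.5, 7.34, 7.1 and 3.11 CPM (log2 fold change −1.31, SE 0.29, edgeR adjusted p = 0.0315, −1.08 without replicate 4, edgeR adjusted p up to 0.105 without 1 library). *PSMC3IP*, which assists strand exchange, measured 8.45, 7.85, 9.28 and 9.33 CPM against 4.01, 3.71, 2.53 and 3.2 CPM (log2 fold change −1.37, SE 0.19, edgeR adjusted p = 0.00543), and its exons overlap those of *MLX*. The lists for checkpoint and damage signalling (20 tested, 2 falls) and for mismatch and excision repair (27 tested, 2 rises and 1 fall) had medians of −0.26 and 0.03.

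Mitotic genes were lower in nearly every member of their list. Of 56 tested, 13 fell and none rose (all genes, 3.54% and 2.88%), and 54 were below 0. In 41 the libraries did not overlap (all genes, 21.9%). The median was −0.69, or −0.58 without replicate 4, where 47 fell (all genes, 19.4%). *MKI67*, which is not in this list and encodes the proliferation antigen Ki-67, had 788, 711, 682 and 583 CPM in SCR (−dox) and 388, 280.0, 337 and 344 CPM in NAA40-KD (−dox). Its lowest control library was well above its highest knockdown library (log2 fold change −1.03, SE 0.15, edgeR adjusted p = 0.00638, −1.05 without replicate 4). *BIRC5*, survivin, a subunit of the chromosomal passenger complex, went from 97.5 to 43.4 CPM (log2 fold change −1.17, SE 0.22, edgeR adjusted p = 0.0165), *AURKA*, a spindle kinase, from 72 to 37.8 CPM (log2 fold change −0.93, SE 0.18, edgeR adjusted p = 0.0172) and *CCNB1*, cyclin B1, from 142 to 81.1 CPM (log2 fold change −0.80, SE 0.17, edgeR adjusted p = 0.0227). These 3 lost the call in 5 or 6 of the 8 fits without 1 library, with edgeR adjusted p-values up to 0.0843. *LMNB1*, lamin B1 of the nuclear lamina, was at 146, 144, 138 and 176 CPM against 85.8, 73.2, 87.7 and 88.9 CPM (log2 fold change −0.85, SE 0.15, edgeR adjusted p = 0.0118), and held in every such fit. *LMNB1* is not in the mitotic list either. Its own list, of the nuclear lamina and chromatin tethering (17 tested), had 1 rise and 1 fall (median −0.05). Without replicate 4 the lamina list had 1 rise and 6 falls. In the same promoter windows, the CHR letters TTTGAA, on either strand, were present in 70.8% (34 of 48) of mitotic promoters and in 9.39% of those of all tested genes, and CCAAT in 75.0% of the mitotic ones.

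Replication-dependent histone genes were the exception among S-phase genes. Of the 59 listed genes only 41 were among the genes counted, and 10 of these passed the filter on low values. Of the 10, 3 rose and none fell (median log2 fold change 0.83, 9 above 0), and 6 rose without replicate 4 (median 0.70). Of all genes, 2.88% rose and 3.54% fell, and 17.1% rose without replicate 4. Over the 41 listed genes that were counted, the summed level was 42.1 to 51.6 CPM in SCR (−dox) and 73.9 to 99.7 CPM in NAA40-KD (−dox), with no overlap. *H2AC6*, an H2A gene, had 7.52, 8.29, 9.13 and 5.97 CPM in SCR (−dox) and 15.2, 20.2, 17.6 and 14.7 CPM in NAA40-KD (−dox) (log2 fold change 1.13, SE 0.19, edgeR adjusted p = 0.0103). *H2BC5*, an H2B gene, had 4.48, 5.91, 5.4 and 3.52 CPM against 10.8, 9.91, 9.56 and 12.7 CPM (log2 fold change 1.15, SE 0.20, edgeR adjusted p = 0.0127), with an edgeR adjusted p of 0.0579 without SCR (−dox) replicate 1. The linker histone gene *H1-2* was at 7.1, 11.3, 7.45 and 8.72 CPM against 12.9, 14, 15.4 and 22.5 CPM (log2 fold change 0.90, SE 0.23, edgeR adjusted p = 0.0477, up to 0.151 by edgeR without 1 library). The mRNAs of these genes mostly lack a poly(A) tail, and how the libraries selected RNA is not given in the sources used here. The list of replication-independent histones and histone mRNA factors (24 tested) had 5 falls, no rise and a median of −0.26.

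Genes of the integrated stress response mostly had a log2 fold change below 0 (26 of 31). Of 31 genes tested, 8 fell and 1 rose (median log2 fold change −0.55), and without replicate 4 23 fell and 2 rose (median −0.73). The shares of all genes were 3.54% and 2.88%, and 19.4% and 17.1% without replicate 4. *SLC7A11*, the cystine and glutamate exchanger, had 114, 151, 171 and 139.8 CPM in SCR (−dox) and 36.2, 28.8, 37.7 and 14.9 CPM in NAA40-KD (−dox). Every knockdown library was far below every control (log2 fold change −2.29, SE 0.28, edgeR adjusted p = 0.00373, −2.07 without replicate 4), and its exons overlap those of *SLC7A11-AS1*. *CHAC1*, which degrades glutathione, was at 32.4, 50.3, 42 and 62.1 CPM against 8.76, 9.3, 12.1 and 21.4 CPM, with replicate 4 the nearest to the controls (log2 fold change −1.86, SE 0.32, edgeR adjusted p = 0.0119, −2.22 without replicate 4). *TRIB3*, a pseudokinase induced by ATF4, had 144, 290.1, 211 and 184 CPM against 50.1, 44, 59.5 and 116 CPM (log2 fold change −1.62, SE 0.33, edgeR adjusted p = 0.0236, −2.02 without replicate 4). *PSAT1*, of serine synthesis, measured 223, 327, 299 and 284 CPM against 111, 92.8, 119 and 61.3 CPM and held in every fit without 1 library (log2 fold change −1.56, SE 0.22, edgeR adjusted p = 0.00634). *SESN2*, sestrin 2, an inhibitor of mTORC1, fell from 106 to 49.1 CPM (log2 fold change −1.11, SE 0.26, edgeR adjusted p = 0.0377, −1.39 without replicate 4). The member that rose was *ALDH18A1*, of proline synthesis, at 135, 121, 115 and 163 CPM in SCR (−dox) and 199.6, 199.6, 229.9 and 202 CPM in NAA40-KD (−dox) (log2 fold change 0.64, SE 0.15, edgeR adjusted p = 0.0394). The calls of *SESN2* and *ALDH18A1* were lost without any 1 of the 7 other libraries (edgeR adjusted p up to 0.122 and 0.129), and that of *TRIB3* without 6 of them (up to 0.0747).

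Amino acid transporters (22 tested) gave 6 falls and no rise (median −0.48), and 14 falls and 1 rise without replicate 4. Among all genes 3.54% fell, and without replicate 4 19.4% fell and 17.1% rose. The sodium-coupled glutamine transporter *SLC38A1* was at 439, 436, 487 and 443 CPM in SCR (−dox) and 232, 220.4, 226 and 102 CPM in NAA40-KD (−dox) (log2 fold change −1.21, SE 0.24, edgeR adjusted p = 0.0215). It lost the call in 5 of the 8 fits without 1 library (edgeR adjusted p up to 0.0793). Immediate early genes also fell in part, with 6 falls and no rise among 27 (median −0.34), and 16 falls and 1 rise without replicate 4. *EGR1*, a growth factor-induced transcription factor, had 307, 399.6, 336 and 439.7 CPM in SCR (−dox) and 74.2, 119, 65.4 and 120.3 CPM in NAA40-KD (−dox) (log2 fold change −1.97, SE 0.24, edgeR adjusted p = 0.00366). *FOS*, an AP-1 subunit, had 118, 264, 166 and 150.2 CPM against 27.8, 81.9, 30.3 and 61 CPM, with a wide spread in both groups (log2 fold change −1.80, SE 0.39, edgeR adjusted p = 0.027, up to 0.0812 by edgeR without 1 library). *DUSP6*, the phosphatase that ERK signalling induces and that dephosphorylates ERK, was at 68.2, 88, 89.4 and 65.6 CPM against 24.7, 35.8, 27.4 and 16 CPM (log2 fold change −1.58, SE 0.24, edgeR adjusted p = 0.0082).

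Interferon response genes were higher. Of 36 tested, 6 rose and none fell (2.88% of all genes rose), with a median log2 fold change of 0.53. Without replicate 4 21 rose and 2 fell (all genes, 17.1% and 19.4%), with a median of 0.57. *IFIT1*, which binds RNA lacking a full cap, had 6.84, 5.82, 6.08 and 6.58 CPM in SCR (−dox) and 26.9, 30.9, 30.9 and 16.7 CPM in NAA40-KD (−dox). The knockdown libraries were well above the controls, with replicate 4 the lowest of them (log2 fold change 2.06, SE 0.22, edgeR adjusted p = 0.00268, 2.22 without replicate 4). *OASL*, a relative of the 2′-5′ oligoadenylate synthetases, was at 7.35, 7.93, 6.62 and 5.74 CPM against 22, 21.7, 23.2 and 34.5 CPM, with replicate 4 the highest (log2 fold change 1.87, SE 0.21, edgeR adjusted p = 0.00296, 1.69 without replicate 4). *ISG15*, a ubiquitin-like modifier, had 52.4, 70.8, 50.1 and 59.7 CPM in SCR (−dox) and 116, 119, 136 and 350.3 CPM in NAA40-KD (−dox), with replicate 4 far above the other 3 (log2 fold change 1.63, SE 0.36, edgeR adjusted p = 0.0305, 1.08 without replicate 4). *IFITM3*, which hinders the entry of viruses, showed the same pattern at 182, 207, 163 and 172 CPM against 297, 332, 335 and 647 CPM (log2 fold change 1.16, SE 0.25, edgeR adjusted p = 0.0271, 0.83 without replicate 4). *STAT2*, a subunit of the factor that type I interferon activates, was at 69, 86.8, 78.6 and 58.7 CPM against 140.5, 148, 130.2 and 158 CPM (log2 fold change 0.98, SE 0.16, edgeR adjusted p = 0.0103), with an edgeR adjusted p of 0.0515 without SCR (−dox) replicate 1. *ISG15* and *IFITM3* lost their calls in 4 and 5 of the 8 fits without 1 library (edgeR adjusted p up to 0.11 and 0.101), and their exons overlap other annotated genes.

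**Figure D3:**
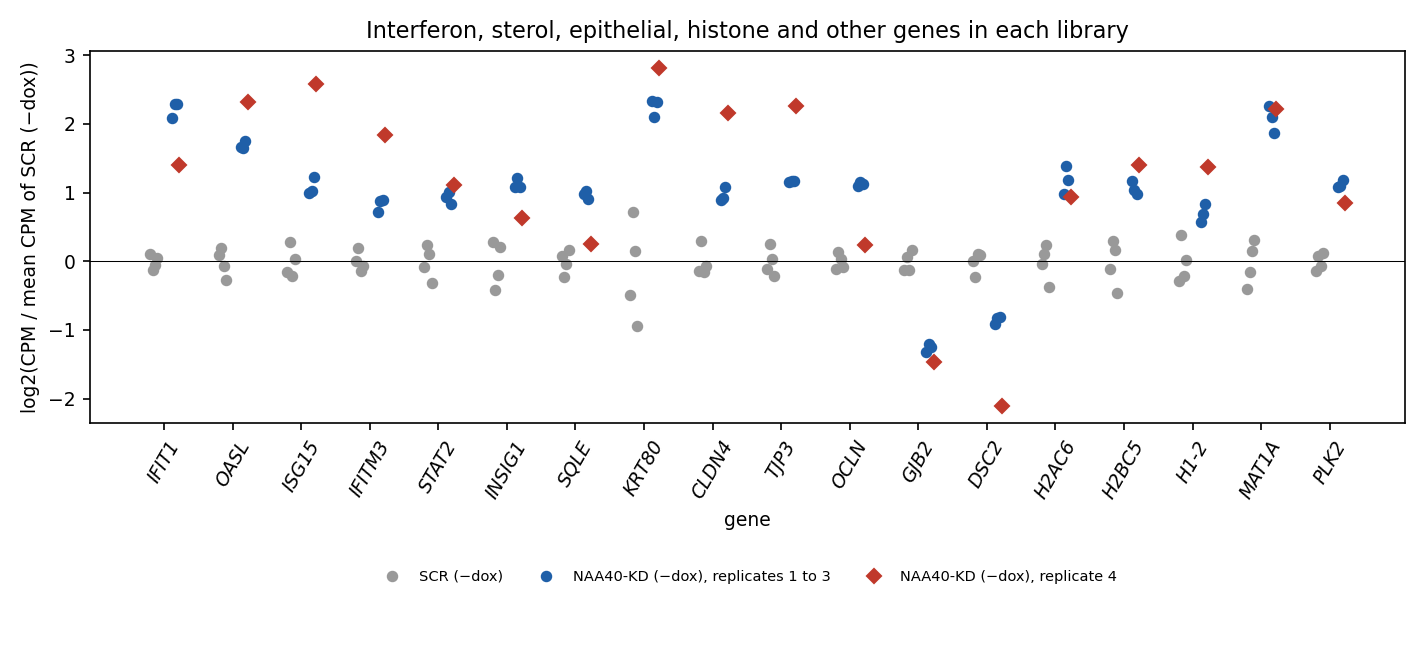
Level of 18 genes of the interferon, sterol, epithelial and histone groups, with *MAT1A* and *PLK2*, in each −dox library, as log2 of the CPM over the mean CPM of SCR (−dox). Grey points are SCR (−dox), blue points NAA40-KD (−dox) replicates 1 to 3 and red diamonds replicate 4. *GJB2* and *DSC2* lie below the controls, the other 16 above, and replicate 4 stands above its group for *ISG15*, *IFITM3*, *CLDN4* and *TJP3* and below it for *OCLN* and *DSC2*.

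Genes of epithelial junctions and keratins changed in both directions. Of 28 junction and adhesion genes, 6 rose and 2 fell (median log2 fold change 0.37), and 16 rose and 2 fell without replicate 4 (median 0.26). All genes gave 2.88% rises and 3.54% falls, and 17.1% and 19.4% without replicate 4. *CLDN4*, a claudin of tight junctions, had 246, 334, 245 and 259.9 CPM in SCR (−dox) and 504, 515, 575 and 1211 CPM in NAA40-KD (−dox). Replicates 1 to 3 were alike and above the controls, and replicate 4 was higher still (log2 fold change 1.37, SE 0.29, edgeR adjusted p = 0.0261, 0.97 without replicate 4). *TJP3*, a scaffold of tight junctions, followed the same order at 64.3, 82.9, 71.4 and 60.1 CPM against 154, 157, 156 and 333 CPM (log2 fold change 1.52, SE 0.27, edgeR adjusted p = 0.0146, 1.16 without replicate 4). *OCLN*, occludin, was at 34.6, 41.1, 38.3 and 35.2 CPM against 79.8, 82.7, 81.3 and 43.9 CPM, and there replicate 4 lay near the controls (log2 fold change 0.95, SE 0.21, edgeR adjusted p = 0.0315, 1.12 without replicate 4). The members that fell were *GJB2*, connexin 26 of gap junctions, at 52.1, 59.3, 52.2 and 64 CPM in SCR (−dox) and 22.9, 24.7, 23.9 and 20.5 CPM in NAA40-KD (−dox) (log2 fold change −1.31, SE 0.15, edgeR adjusted p = 0.003), and *DSC2*, a desmosomal cadherin, which went from 72.4 to 34.3 CPM (log2 fold change −1.07, SE 0.27, edgeR adjusted p = 0.0437, −0.85 without replicate 4). Among 12 keratins 3 rose and 3 fell (8 and 3 without replicate 4), and *KRT80* had 8.03, 18.6, 12.5 and 5.89 CPM against 56.7, 48.3, 56 and 79.5 CPM (log2 fold change 2.42, SE 0.34, edgeR adjusted p = 0.00616, 2.26 without replicate 4). *OCLN* and *DSC2* lost their calls without any 1 of the 7 other libraries (edgeR adjusted p up to 0.116 and 0.133), *CLDN4* without 4 of them (up to 0.0982) and *TJP3* without SCR (−dox) replicate 1, 3 or 4 (up to 0.0673). The summed epithelial marker levels given above were higher too, though none of the 8 tested markers rose and 1 fell with all 8 libraries. Their part in these values was not tested.

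Genes of sterol metabolism and of the p53 response were higher in part. Of 26 genes of cholesterol synthesis and uptake, 2 rose and none fell (median 0.49), and 15 rose and none fell without replicate 4 (median 0.32). The shares of all genes that rose and fell were 2.88% and 3.54%, and 17.1% and 19.4% without replicate 4. *INSIG1*, which holds back the sterol-sensing factor SREBP, had 96.9, 59.7, 69 and 91.9 CPM in SCR (−dox) and 168, 183, 169 and 123 CPM in NAA40-KD (−dox) (log2 fold change 1.02, SE 0.20, edgeR adjusted p = 0.0215), and *SQLE*, squalene epoxidase, 95.1, 76.7, 87.5 and 100.4 CPM against 178, 182, 168 and 107 CPM (log2 fold change 0.82, SE 0.19, edgeR adjusted p = 0.0384). Both lost the call in 6 or 7 of the 8 fits without 1 library, with edgeR adjusted p-values up to 0.0866 and 0.121. Of 33 p53 targets, 4 rose and 2 fell (median 0.36), and 14 rose and 4 fell without replicate 4 (median 0.25). *PLK2*, a p53-induced kinase, was at 132, 155, 139 and 159.6 CPM against 310.1, 314, 332 and 263 CPM and held in every fit (log2 fold change 1.05, SE 0.14, edgeR adjusted p = 0.00436). *CDKN1A*, the p21 inhibitor of cyclin-dependent kinases, was at 347, 476, 386 and 423 CPM in SCR (−dox) and 492, 457, 501 and 728 CPM in NAA40-KD (−dox). Its groups overlapped and it did not pass (log2 fold change 0.42, SE 0.18, edgeR adjusted p = 0.201, and 0.0741 without replicate 4).

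Among the largest falls were *LONRF2*, *NRP1*, *FAM111B* and *SERPINB8*. *LONRF2*, a RING-finger protein gene, went from 5.83, 6.97, 10.1 and 5.81 CPM in SCR (−dox) to 1.19, 1.06, 0.724 and 0.673 CPM in NAA40-KD (−dox) (log2 fold change −2.96, SE 0.29, edgeR adjusted p = 0.00238). *NRP1*, neuropilin 1, a co-receptor for semaphorins and VEGF, was at 17.7, 19.2, 23 and 13.4 CPM against 2.89, 2.72, 3.04 and 1.26 CPM (log2 fold change −2.87, SE 0.28, edgeR adjusted p = 0.00238), and its exons overlap another annotated gene. *FAM111B*, whose protein is a protease, had 12.5, 12.2, 13.8 and 17.7 CPM against 2.08, 2.42, 2.61 and 1.26 CPM (log2 fold change −2.74, SE 0.25, edgeR adjusted p = 0.00209). In each of these 3 the lowest control library was above every knockdown library. *SERPINB8*, a serine protease inhibitor, fell from 15.1 to 2.31 CPM (log2 fold change −2.70, SE 0.29, edgeR adjusted p = 0.00292), with exons that overlap those of *HMSD* and another gene. *MYB*, a transcription factor of progenitor cells, was low in both groups, at 4.22, 4.85, 3.65 and 5.58 CPM and 1.11, 1.29, 1.09 and 0.673 CPM (log2 fold change −2.12, SE 0.26, edgeR adjusted p = 0.00342). Among better expressed genes, *NT5E*, the surface enzyme CD73 that makes adenosine from AMP, had 216, 230.5, 236 and 217 CPM in SCR (−dox) and 56.3, 51.1, 58.9 and 41.7 CPM in NAA40-KD (−dox), with little spread in either group (log2 fold change −2.11, SE 0.16, edgeR adjusted p = 0.000739, −2.02 without replicate 4).

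Rises of like size were those of *ASIC4* and *SEMA7A*. *ASIC4*, of the acid-sensing ion channel family, was at 4.31, 5.2, 5.55 and 2.75 CPM in SCR (−dox) and 18.4, 19.4, 16.4 and 46.2 CPM in NAA40-KD (−dox), with replicate 4 far above the rest (log2 fold change 2.49, SE 0.38, edgeR adjusted p = 0.00781, 2.02 without replicate 4). *SEMA7A*, a membrane-anchored semaphorin, had 32.9, 38.4, 30.5 and 31.8 CPM against 117, 103, 115 and 206 CPM (log2 fold change 2.02, SE 0.24, edgeR adjusted p = 0.00338, 1.74 without replicate 4). At high level, *FTL*, the ferritin light chain, stood at 902, 1029, 749.9 and 994 CPM against 1701, 1616, 1881 and 3209 CPM (log2 fold change 1.19, SE 0.23, edgeR adjusted p = 0.0195), and *SFN*, the 14-3-3 sigma protein, at 278, 279, 215 and 289 CPM against 462, 413, 507 and 1047 CPM (log2 fold change 1.19, SE 0.29, edgeR adjusted p = 0.0402). In both, replicate 4 stood farther above replicates 1 to 3 than those stood above the controls, and without it the log2 fold changes were 0.91 and 0.79. *FTL* lost the call in 4 and *SFN* in 7 of the 8 fits without 1 library (edgeR adjusted p up to 0.0737 and 0.127).

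Over the 56 lists, 1330 members were tested, and 174 of them passed with all 8 libraries (all genes, 6.42%). Of the list medians, 25 were above 0 and 31 below. In some other lists no member passed with all 8 libraries. Of 79 cytosolic ribosomal protein genes 74 were above 0 (median 0.32). Without replicate 4, 15 rose and 1 fell (median 0.17, all genes 17.1% and 19.4%). With the GC offset 28 rose and none fell (all genes, 18.1% and 19.9%). Nor did any of the 15 mitochondrially encoded genes (median −0.44), 23 histone lysine demethylases (median 0.02) or 14 DNA methylation enzymes (median −0.15) pass. Of the last, 12 were below 0, and 5 fell without replicate 4. Of 13 subunits of N-terminal acetyltransferases, *NAA40* alone passed with all 8 libraries, while 3 rose and 3 fell without replicate 4.

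**Figure D4:**
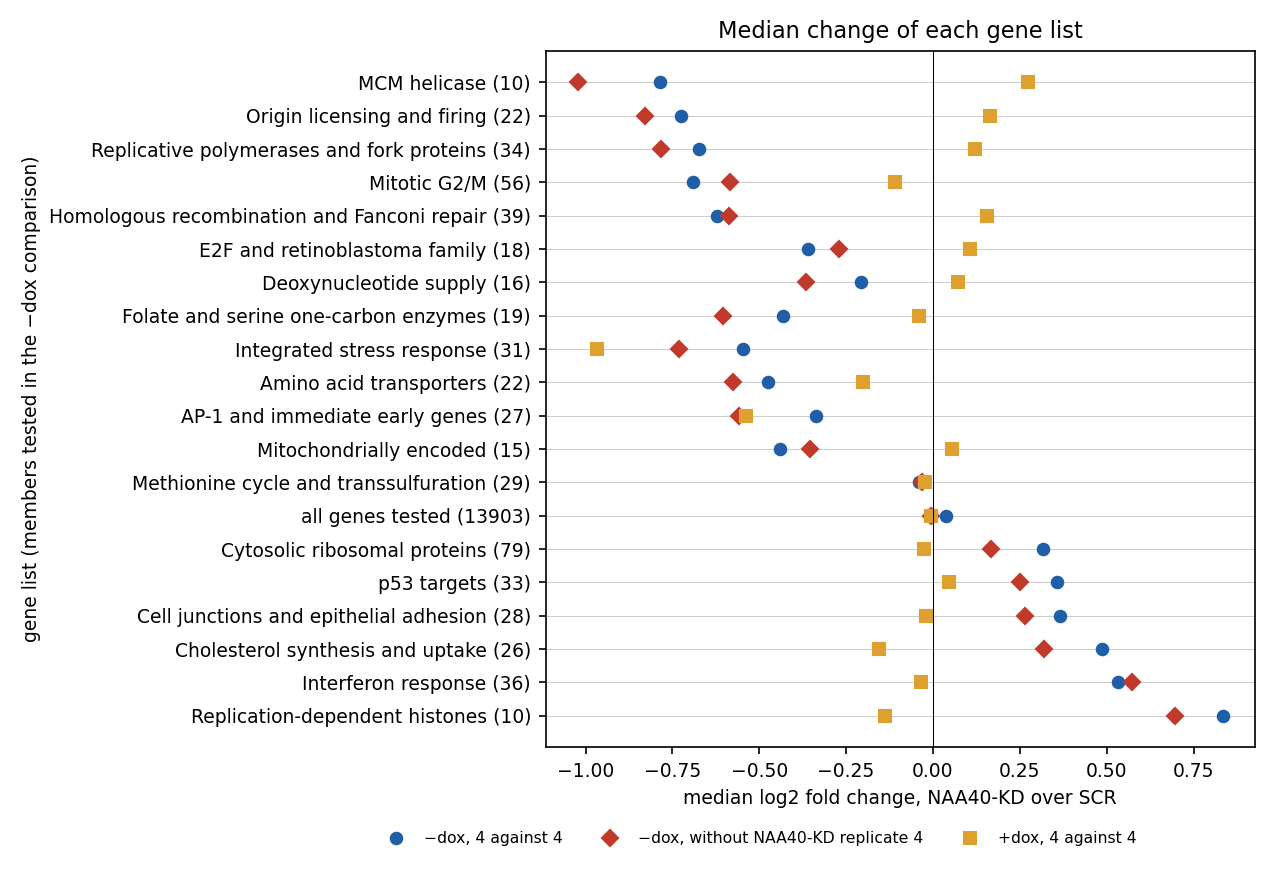
Median log2 fold change of NAA40-KD over SCR in 19 gene lists and over all genes tested, with the number of members tested in brackets. Blue circles are the −dox comparison of 4 against 4 libraries, red diamonds the same without NAA40-KD (−dox) replicate 4 and orange squares the +dox comparison. The replication, mitotic and repair lists lie left of 0 in the −dox comparison, and the histone, interferon and sterol lists right of it.

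The comparison of the libraries labelled (+dox), in which *NAA40* was not low, shares no library with the one above. There, 3402 of 13869 genes passed (24.5%, of which 10.9% higher and 13.7% lower), and 298 also passed the fold threshold (2.15%), 48 higher (0.346%) and 250 lower (1.80%). Of the 226 genes that passed both thresholds upward under (−dox), 40 (17.7%) also rose under (+dox) and 18 fell, and of the 257 that passed downward 109 (42.4%) also fell and 19 rose. Both thresholds were passed upward in both comparisons by 8 genes (3.54% of 226 and 16.7% of 48) and downward by 40 (15.6% of 257 and 16% of 250). The difference between both comparisons, an interaction term over all 16 libraries, was called for 1327 of 14392 genes (9.22%, 4.91% above 0 and 4.31% below). It was called for 139 of the 226 and 146 of the 257 genes. These genes were chosen on the −dox libraries that also enter the interaction. A raised share among them follows in part from that choice and is no separate support. Without replicate 4 it was called for 3467 of 14302 genes (24.2%, 12.3% above 0 and 11.9% below).

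Replication and stress response genes differed in this respect. Of the 66 replication genes, 20 rose and 1 fell under (+dox), where 10.9% of all genes rose and 13.7% fell, with a median log2 fold change of 0.16. The interaction was called for 38 of the 66, all below 0 (all genes, 4.31% below 0 and 4.91% above). The replication lists are given here for their falls in the −dox libraries, which enter the interaction, so this share is no separate support. *MCM10* was at 51.7 CPM in NAA40-KD (+dox) and 46.1 CPM in SCR (+dox) (log2 fold change 0.17, edgeR adjusted p = 0.191), and its interaction was −1.75 (SE 0.18, edgeR adjusted p = 3.8e-05). For *TYMS*, whose levels were 49 and 42.8 CPM, the (+dox) log2 fold change was 0.19 (edgeR adjusted p = 0.25) and the interaction −1.19 (edgeR adjusted p = 0.00214). Other genes that fell under (−dox) rose under (+dox), such as *MTR* (0.57, edgeR adjusted p = 0.000921) and *MYB* (0.78, edgeR adjusted p = 0.00237). The replication gene that fell under both labels was *MCM6* (−0.93 under (+dox), interaction 0.09, edgeR adjusted p = 0.842). Of the 31 stress response genes, by contrast, 27 fell and 1 rose under (+dox), with a median of −0.97. The interaction was called for 3 of the 31, all above 0, a number close to the share over all genes in either direction (9.22%). *SLC7A11* was at 67.3 CPM in NAA40-KD (+dox) and 189 CPM in SCR (+dox) (−1.49, edgeR adjusted p = 3.94e-08), *CHAC1* at 12.3 and 56.6 CPM (−2.19, edgeR adjusted p = 7.75e-05) and *TRIB3* at 63.1 and 273 CPM (−2.11, edgeR adjusted p = 2.2e-09). These 3 genes fell in the NAA40-KD line both where *NAA40* was low and where it was not. The interaction of *SLC7A11* was −0.80 (edgeR adjusted p = 0.117) with all libraries and −0.57 (edgeR adjusted p = 0.0232) without replicate 4, so that in the latter fit it fell by more under (−dox).

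**Figure D5:**
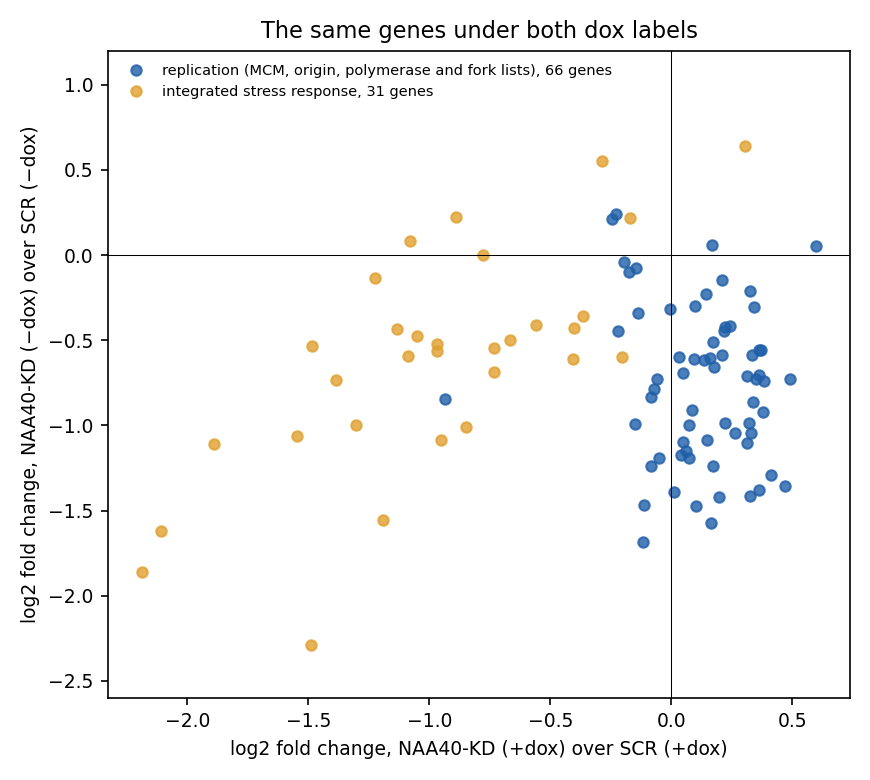
Log2 fold change of NAA40-KD over SCR under (−dox), vertical axis, against that under (+dox), horizontal axis, for the 66 replication genes (blue) and the 31 integrated stress response genes (orange). The replication genes lie mostly below the horizontal line at 0 (62 of 66) and to the right of the vertical line, and the stress response genes mostly below and to the left (26 and 30 of 31).

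Among the groups that were higher under (−dox), the interaction was called above 0 for 10 of 36 interferon genes, 8 of 26 sterol genes, 4 of 10 replication-dependent histone genes and 8 of 28 junction genes, and below 0 for 2 of the junction genes (all genes, 4.91% above and 4.31% below 0). These groups, and the mitotic list below, are given here for their changes in the −dox libraries. The same libraries enter the interaction, so a raised share follows in part from that choice. *IFIT1* was at 6.61 CPM in NAA40-KD (+dox) and 6.85 CPM in SCR (+dox) (log2 fold change −0.05, interaction 2.10, edgeR adjusted p = 0.000199). *MAT1A* was at 3.36 and 3.4 CPM (−0.02, interaction 2.12, edgeR adjusted p = 0.000311). The histone gene *H2AC6* moved in opposite directions, falling under (+dox) from 8.44 to 5.42 CPM (−0.64, edgeR adjusted p = 0.00414, interaction 1.76). *KRT80* rose under both labels, by 0.69 under (+dox), with an interaction of 1.71 (edgeR adjusted p = 0.00962), and *NT5E*, *NRP1*, *LONRF2* and *SERPINB8* fell under both, by more under (−dox). The mitotic list had 11 falls among 56 genes under (+dox) (median −0.11, while 13.7% of all genes fell), and its interaction was called below 0 for 11 genes and above 0 for 1.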

How the data were processed

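RNA from HCT116 cells was sequenced in 16 libraries, 4 per group, and the groups were taken from the labels. The authors deposited 1 table of read counts per gene. Per the study's methods and the submitters' processing notes, reads were aligned with STAR, counted with featureCounts and tested with limma. The notes name the builds hg38 and GRCm38, and the methods a mouse build alone, yet all 33937 identifiers are human. The library kit was stranded, but whether counting used strand is not given in the sources used here. The extraction kit in the labels differs from that in the methods. All 16 count columns matched a sample (0 were left unmatched). No column of the authors' own comparisons was used.

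From these counts, genes above 1 CPM in at least 4 of the 8 −dox libraries were kept. Trimmed mean of M-values (TMM) normalization and edgeR's robust quasi-likelihood test (edgeR 4.0.16, R 4.3.3) were used, with Benjamini-Hochberg adjustment over all genes tested. The SE was taken as the size of the log2 fold change over the root of its F statistic. The interaction was fitted over all 16 libraries. The offset for GC content is a lowess curve (span 0.3) of log2 level on exonic GC content, fitted in each library. Alternatives were DESeq2 1.42.0, voom in limma 3.58.1, other normalizations, filters, thresholds and samples, the replicate number as a block, and each library left out in turn. The scripts were tested on simulated data. Coordinates, symbols and exonic overlaps come from GENCODE 29 (GRCh38), with 33811 identifiers matched. Promoters come from RefSeq (GRCh38.p14).

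Members, gene lists and tests were chosen with earlier results of these data known. The genes named are, first, *NAA40*, *MAT1A*, *CTH*, *MMAA* and *TYMS*. Next come genes among the 12 largest or 5 best expressed changes each way. These passed both thresholds with all 8 libraries, did not overlap and averaged at least 5 CPM in a group. Without replicate 4 and with the GC offset they had to pass the adjusted p threshold alone, in the same direction. Last, each list gave up to 6 members that passed, up to 3 that passed against the list's median and up to 4 that did not. Of the genes this rule allows, 68 are named, and some genes are not reported here. Libraries of 11065606 to 13855486 counts limit the precision for genes of few CPM.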

Additional observations from a re-analysis of the deposited data

Results flagged for a closer look

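Of 144 sets of 4 libraries tested (the levels of the 68 named genes in each group and the library measures), 20 had a library whose gap to its nearest neighbour exceeded Dixon's 95% limit. Chance gives about 1 in 20 sets. NAA40-KD (−dox) replicate 4 was that library in 16 of the 20. It stood high, in CPM, for *MCM3* (88.1), *OASL* (34.5), *ISG15* (350.3), *IFITM3* (647), *CLDN4* (1211), *TJP3* (333), *CDKN1A* (728), *ASIC4* (46.2), *SEMA7A* (206), *FTL* (3209) and *SFN* (1047) and low for *OCLN* (43.9), *DSC2* (16.8) and *SLC38A1* (102). Its slope of log2 level on GC content (0.753 per 10 percentage points) and its TMM factor (0.925, against 0.999 to 1.01 in the other 3) stood apart as well. The other libraries set apart were SCR (−dox) replicate 4 for *FEN1* (112 CPM), NAA40-KD (−dox) replicate 3 for *ALDH18A1* (229.9 CPM), and SCR (−dox) replicate 3 for *SFN* (215 CPM) and *SLC38A1* (487 CPM).

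The interaction over all 16 libraries was called for 54 of the named genes (edgeR adjusted p under 0.05), 31 below 0 and 23 above 0. Over all genes it was called for 9.22%. Most named genes were chosen for passing in the −dox comparison, whose libraries enter the interaction, so the count of 54 is raised by that choice. For *NAA40*, its low level chose the libraries themselves. All 54 were also called without NAA40-KD (−dox) replicate 4. Of them, 46 were called under every setting that tested them (23 settings, but 22 for *LONRF2* and *MYB*). The values are the log2 fold change of NAA40-KD over SCR under (−dox) minus that under (+dox). For the one-carbon and deoxynucleotide genes it was 2.12 for *MAT1A*, 0.83 for *CTH*, 1.14 for *MMAA*, −1.35 for *MTR*, −1.19 for *TYMS* and −0.92 for *DUT*. For the replication genes it was −1.75 for *MCM10*, −1.63 for *MCM3*, −1.58 for *GINS3*, −1.15 for *CDC6*, −1.58 for *POLA1*, −1.41 for *POLA2*, −1.75 for *CLSPN* and −1.16 for *FEN1*. For the G1/S, repair and mitotic genes it was −1.47 for *E2F2*, −0.86 for *CCNE1*, −0.92 for *CDK2*, −1.64 for *EXO1*, −1.94 for *XRCC2*, −1.43 for *PSMC3IP* and −0.77 for *AURKA*. Outside the mitotic list, it was −1.18 for *MKI67* and −0.92 for *LMNB1*. For the histone genes it was 1.64 for *H2BC5*, 1.76 for *H2AC6* and 1.44 for *H1-2*. For the interferon genes it was 2.10 for *IFIT1*, 2.18 for *OASL*, 2.15 for *ISG15*, 1.38 for *IFITM3* and 0.90 for *STAT2*. For the junction and keratin genes it was 1.71 for *KRT80*, 1.17 for *CLDN4*, 1.46 for *TJP3*, 0.91 for *OCLN*, −1.16 for *GJB2* and −1.11 for *DSC2*. For the sterol and p53 genes it was 1.10 for *INSIG1*, 1.08 for *SQLE*, 0.88 for *PLK2* and 0.80 for *CDKN1A*. For the other genes it was −1.46 for *NAA40*, −1.45 for *EGR1*, −1.54 for *LONRF2*, −1.87 for *NRP1*, −2.83 for *FAM111B*, −1.11 for *SERPINB8*, −1.22 for *NT5E*, 1.37 for *ASIC4*, 1.88 for *SEMA7A*, 1.14 for *FTL*, 1.37 for *SFN*, −1.02 for *SLC38A1* and −2.90 for *MYB*.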

How the results depend on the processing

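None of the 65 named genes that passed changed direction. Of the genes past both thresholds, more were lower than higher in the main fit. With DESeq2 more were higher than lower, and with all 16 libraries in the fit the numbers were equal. More were also higher without SCR (−dox) replicate 3 and with the offset for GC content (chosen after seeing the data). Many list medians, most of them near 0, also changed sign in some of 27 settings. Examples are those of the methionine cycle (−0.12 to 0.04, opposite in 7), of mismatch and excision repair (−0.07 to 0.09, opposite in 7) and of the histone lysine demethylases (−0.07 to 0.08, opposite in 11). Others are the MYB and MYC families (−0.05 to 0.14, opposite in 18), the N-terminal acetyltransferases (−0.13 to 0.12, opposite in 6) and the ephrin and semaphorin list (−0.04 to 0.30, opposite in 1). The 483 genes past both thresholds became 892 with no threshold on the fold change, 137 at an adjusted p under 0.01, 739 with no filter on low counts and 772 with all 16 libraries in the fit. DESeq2 gave 674, voom 501, library size only 515, the upper quartile 482 and the offset for GC content 638. Leaving out 1 library gave 182 (without SCR (−dox) replicate 4) to 587 (without NAA40-KD (−dox) replicate 4), and, in fits chosen after seeing the data, 550 to 666 with the offset as well. The 174 list members called became 323 with DESeq2, 447 with all 16 libraries, 672 with the offset for GC content, 708 with the offset and without NAA40-KD (−dox) replicate 4, and 665 with the offset and CPM above 1 in every library (chosen after seeing the data). Without 1 library there were 64 to 645, and 591, 602, 604, 623, 627, 628 or 636 with the offset as well (without 1 of the other 7 libraries, chosen after seeing the data). The 1327 genes called for the interaction became 4320 with the offset, and 820 to 3467 without 1 library (lowest without NAA40-KD (+dox) replicate 3). The 298 genes of the +dox comparison stayed between 251 and 303. *NAA40* stayed at 37.8 to 43.5% of the SCR (−dox) level.

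The deviations of same-numbered libraries from their group means correlated at 0.142, −0.416, −0.0442 and −0.188 for replicates 1 to 4. The GC trends of the libraries enter these deviations, so the correlations cannot show whether replicate numbers pair the samples. With the replicate block, 82 genes passed both thresholds, 35 list members were called, and 39 of the 65 named genes lost the call, while the block with the offset for GC content gave 630 genes and 632 list members and lost none of the 65. The interaction was called for 1217 genes with the block.

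Of the named genes called, *ALDH18A1* and *SQLE* were lost with library size only, *CCNE1* and *ALDH18A1* with no filter, and *E2F1* with CPM above 1 in every library. One library of 4 carries a strong GC trend, and the offset assumes that exonic GC content alone should not shift levels. The effect of depth was not tested, nor was the cause of the other changes.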

Other observations

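In smaller gene lists few genes passed between NAA40-KD (−dox) and SCR (−dox), and their counts are to be read against the 2.88% of all genes that rose and 3.54% that fell with all 8 libraries, and the 17.1% and 19.4% without replicate 4. Of 16 genes of MHC class I presentation, 2 rose and none fell (median log2 fold change 0.38), and 7 rose and 1 fell without replicate 4 (median 0.19). Of 16 BCL2 family genes, which set the threshold of apoptosis, 2 rose and none fell (median 0.32), and 6 rose and 3 fell without replicate 4. Among 36 ephrins, Eph receptors, semaphorins and neuropilins 2 rose and 3 fell (6 and 9 without replicate 4), and among 26 genes of plasminogen activation and secreted proteases 3 rose and 2 fell (7 and 6). Of 25 genes of purine and pyrimidine synthesis 2 fell and none rose (median −0.15), with 10 falls without replicate 4. Tubulin genes, of which none of 11 passed with all libraries (median −0.25), gave 10 falls and no rise without replicate 4 (median −0.53). None of 31 proteasome genes passed (median −0.25), with 10 falls without replicate 4.

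By chromosome, the median log2 fold change with all 8 libraries was highest on chromosome 19 (0.28 over 988 genes), where it was 0.01 without replicate 4. Protein-coding genes made up 82.7% of the 226 higher and 86.0% of the 257 lower genes, against 89.4% of all tested.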
